A study of Mus musculus with 2 samples.

Results

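The 9 genes described here encode proteases and other proteins of the lysosome: the cathepsins *Ctss*, *Ctsb*, *Ctsd*, *Ctsh*, *Ctsz*, *Ctsc* and *Ctsa*, lysozyme 2 (*Lyz2*), and *Ifi30*. They were taken by symbol from a gene list of 27998 entries, and all 9 had a UMI (unique molecular identifier, standing for 1 captured transcript) in at least 10% of the cells kept, a limit that 2737 genes passed in all. The cells came from mouse *MLL-AF9* acute myeloid leukemia, made by retroviral expression of the fusion oncogene in lineage-depleted bone marrow cells that were then grown in lethally irradiated recipients. All donor mice carried Kat2a Flox/Flox alleles and all received pIpC, which induces Mx1-Cre where that transgene is present. Donors without the transgene (Mx1-Cre -/-) gave the *Kat2a* WT leukemias and donors with 1 copy (Mx1-Cre+/-) the *Kat2a* KO leukemias, with marrow taken 4 to 6 weeks after treatment. The Mx1 promoter responds to interferon and acts in many cell types and not in blood cells alone. Terminal leukemias were pooled before capture, 5 for WT and 4 for KO, so each genotype is 1 library with no replicate and the leukemias within a pool carry no label.

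The 2 libraries are called the WT-labelled and the KO-labelled library, because the targeted gene went against its label. *Kat2a* stood at 12.2 CPM (counts per 1e6 UMIs) in the WT-labelled library and at 95.8 CPM in the KO-labelled library. The 3′ assay reads the last exon, which the excised allele retains, so this level checks nothing about the excision. Every direction between the libraries given here rests on that labelling. The cells kept, those with 500 or more genes, numbered 3866 in the WT-labelled library and 3545 in the KO-labelled library, with medians of 2588.5 and 1884 UMIs per cell. Of the cell barcodes of kept cells, 19 occurred in both libraries. All intervals given here are exact 95% intervals and cover counting error only. They say nothing about the spread between leukemias, and no test between genotypes was possible.

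Lysosomes are acid compartments in which proteins, lipids and sugars delivered by endocytosis, phagocytosis and autophagy are broken down. Cathepsins are their main proteases: most are cysteine proteases, cathepsin D is an aspartic protease and cathepsin A a serine carboxypeptidase. Monocytes and macrophages hold many lysosomes and use cathepsin S and GILT, the thiol reductase encoded by *Ifi30*, to prepare antigens for MHC class II. Granulocytes hold lysosome-related granules instead, and cathepsin C (dipeptidyl peptidase I) activates the serine proteases stored there. Lysozyme, which cuts bacterial cell walls, is made by granulocytes as well as by monocytes and macrophages. Cystatins and stefins inhibit cysteine cathepsins.

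The genes lie on 7 chromosomes of GRCm38 in the GENCODE M21 annotation. *Ctsa* (chr2:164832873-164841032, plus strand) and *Ctsz* (chr2:174427493-174439039, minus strand) share chromosome 2, and *Ctsc* (chr7:88278085-88310888, plus strand) and *Ctsd* (chr7:142375911-142388038, minus strand) share chromosome 7. *Ctss* lies at chr3:95526786-95556403 (plus strand), *Ifi30* at chr8:70762774-70766663 (minus strand), *Ctsh* at chr9:90054152-90076089 (plus strand), *Lyz2* at chr10:117277331-117282321 (minus strand) and *Ctsb* at chr14:63122462-63145923 (plus strand). In 3′ data reads gather at the last exon. On the opposite strand *Fdft1* overlaps that exon of *Ctsb*, *Nelfcd* that of *Ctsz* and *Pltp* that of *Ctsa*. Whether strand was used in counting was not given in the sources used here, so part of these 3 genes' counts is uncertain. *Lyz2* has a near-identical neighbour, *Lyz1*, which held only 4.63 CPM in the WT-labelled library and 4.17 CPM in the KO-labelled library.

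RefSeq promoter windows (GRCm38.p6) were at hand for 7 of the 9 genes, in 8 windows. They were searched over the 250 bases before each start, on both strands, for 2 short motifs chosen after the windows had been read. The first, TCACGTG, is the core of the E-box found in many lysosomal promoters and bound by the TFEB family. It occurred in 3 of the 8 windows, those of *Ctsd*, *Ifi30* and the second start of *Ctsa*, against 3.13% of all 32851 windows of the same length. The second, AGGAAGT, holds the core read by ETS factors, a family with many members in myeloid cells. It occurred in 2 of the 8 windows, those of *Ctsc* and *Lyz2*, against 7.69% of all windows. The stretches around the matches are shown for the genes whose contrasts are described next. Capitals mark the match, and 5′ to 3′ follows the gene's strand:
Ctsa, chr2:164833749-164833772, plus strand: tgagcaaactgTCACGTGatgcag
Ctsd, chr7:142387909-142387937, minus strand: tcgcccgcgtcTCACGTGacccgttgagg
Ifi30, chr8:70766843-70766871, minus strand: atccaaaaactTCACGTGaccagacatgc
Ctsc, chr7:88277923-88277951, plus strand: gtcactaactaACTTCCTcaggccacctc
Lyz2, chr10:117282355-117282383, minus strand: gatcggtaggaACTTCCTgttttgcacac
In *Ctsa*, *Ctsd* and *Ifi30* the match is followed by an A, so the same site also reads as the motif on the other strand. *Ctsd* held a second match, read on the other strand, whose first base lay 245 bases before its start. A match is a run of letters and not a measured binding site.

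Kept cells were sorted by the share of their UMIs that came from 11 monocyte marker genes (among them *Irf8*, *Ms4a6c*, *Csf1r*, *F13a1* and *Ccr2*) or from 12 granulocyte marker genes (among them *S100a8*, *S100a9*, *Ngp*, *Camp* and *Ltf*). None of the 9 genes is in either list. A cell was called marker-rich when its share was above 0 and at or above percentile 75 of the kept cells of both libraries. The limit was 0.143% of UMIs for the monocyte markers and 16.3% for the granulocyte markers. These classes are ranges of a score and not cell types: 233 cells lay within 10% of the monocyte limit and 486 within 10% of the granulocyte limit. Monocyte-marker-rich cells were 25.7% (24.3 to 27.1%) of the WT-labelled library and 24.3% (22.9 to 25.7%) of the KO-labelled library. Granulocyte-marker-rich cells were 27.9% (26.5 to 29.4%) and 21.8% (20.5 to 23.2%). Only 3 and 1 cells were rich in both. Median depth was 2149 UMIs in monocyte-marker-rich cells of the WT-labelled library and 1532 in those of the KO-labelled library.

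All 9 genes were higher in monocyte-marker-rich cells than in the other kept cells, in both libraries. The share of all genes that were higher there by any amount was not counted. *Ctss*, the protease that trims the MHC class II invariant chain, stood at 705 CPM (673 to 737) in monocyte-marker-rich cells of the WT-labelled library against 50.1 CPM in the others. In the KO-labelled library it stood at 881 CPM (837 to 926) against 76.7 CPM. These are 14.1-fold and 11.5-fold differences, above those of the other 8 genes. *Ifi30* followed at 6.48-fold in the WT-labelled library (234 against 36.2 CPM) and 5.86-fold in the KO-labelled library (236 against 40.4 CPM). *Ctsc* was 5.51-fold higher in the WT-labelled library (363 against 65.9 CPM) and 4.29-fold higher in the KO-labelled library (381 against 88.8 CPM). The 3 genes with the steepest contrast were thus *Ctss*, *Ifi30* and *Ctsc* in both libraries.

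The other cathepsins showed smaller contrasts. *Ctsa*, the serine carboxypeptidase that also protects lysosomal β-galactosidase and neuraminidase, was 3.32-fold higher in the WT-labelled library and 3.05-fold higher in the KO-labelled library. *Ctsh*, an aminopeptidase, was 2.90-fold and 3.01-fold higher. *Ctsz*, a carboxypeptidase, was 2.32-fold and 2.53-fold higher. *Ctsb*, a cysteine endopeptidase and dipeptidyl carboxypeptidase, was 2.00-fold and 1.84-fold higher. *Ctsd* had the smallest contrast of the 9, at 1.37-fold (278 against 202 CPM) in the WT-labelled library and 1.299-fold (212 against 163 CPM) in the KO-labelled library. *Lyz2* was 2.80-fold higher in the WT-labelled library (6921 against 2468 CPM) but 1.81-fold higher in the KO-labelled library (4364 against 2411 CPM). These *Lyz2* contrasts moved with the monocyte limit, from log2 ratios of 0.45 and 0.08 with the limit at percentile 50 to 2.30 and 1.37 at percentile 90. Counted together, 8 of the 9 genes were 2-fold or more higher in the WT-labelled library and 6 of the 9 in the KO-labelled library, where 4.13% of the 2737 genes were so in the WT-labelled library and 4.13% in the KO-labelled library. The median log2 ratio of the 9 genes was 1.54 and 1.59.

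Granulocyte-marker-rich cells showed the opposite for 8 of the 9 genes, and *Lyz2* was the exception. *Ctss* fell to 7.86 CPM (4.87 to 12.0) in these cells of the WT-labelled library, from 21 UMIs in all, against 254 CPM in the other kept cells. In the KO-labelled library it stood at 13.7 CPM (8.56 to 20.7) against 313 CPM. *Ctss* was thus 32.3-fold and 22.9-fold lower, or by -5.01 and -4.52 on the log2 scale, and in cells with 1000 or more genes by -3.12 and -2.63. *Ctsc* was 6.57-fold and 5.06-fold lower, *Ifi30* 5.09-fold and 3.24-fold lower, *Ctsa* 4.08-fold and 3.93-fold lower, and *Ctsz* 3.35-fold and 3.49-fold lower. *Ctsb*, *Ctsh* and *Ctsd* differed by less than 2-fold, with *Ctsd* again the most even at 1.40-fold and 1.55-fold lower. In each library 5 of the 9 genes were 2-fold or more lower, where 15.8% of all 2737 genes were so in the WT-labelled library and 12.8% in the KO-labelled library. Granulocyte markers take at least 16.3% of the UMIs of these cells, which lowers the CPM of every other gene in them. The share of all genes that were lower there by any amount, to set beside the 8 of 9, was not counted.

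*Lyz2* was higher in granulocyte-marker-rich cells: 4846 CPM (4763 to 4930) against 3062 CPM in the WT-labelled library, and 4568 CPM (4464 to 4674) against 2395 CPM in the KO-labelled library. The differences were 1.58-fold and 1.91-fold. The first rests on the limit, since with the granulocyte limit at percentile 50 the log2 ratio in the WT-labelled library was 0.0041. At percentile 75 *Lyz2* was the only one of the 9 genes that was higher in both kinds of marker-rich cells. Cells rich in neither list held 1478 CPM in the WT-labelled library and 1657 CPM in the KO-labelled library. In the WT-labelled library the order of *Lyz2* levels was therefore monocyte-marker-rich, granulocyte-marker-rich and then neither. In the KO-labelled library the first 2 lay close together, at 4357 CPM (4259 to 4456) and 4561 CPM (4457 to 4667), with the granulocyte-marker-rich cells now higher. *Ctss* levels kept 1 order in both libraries, with the interval of each class apart from the next.

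**Figure D1:**
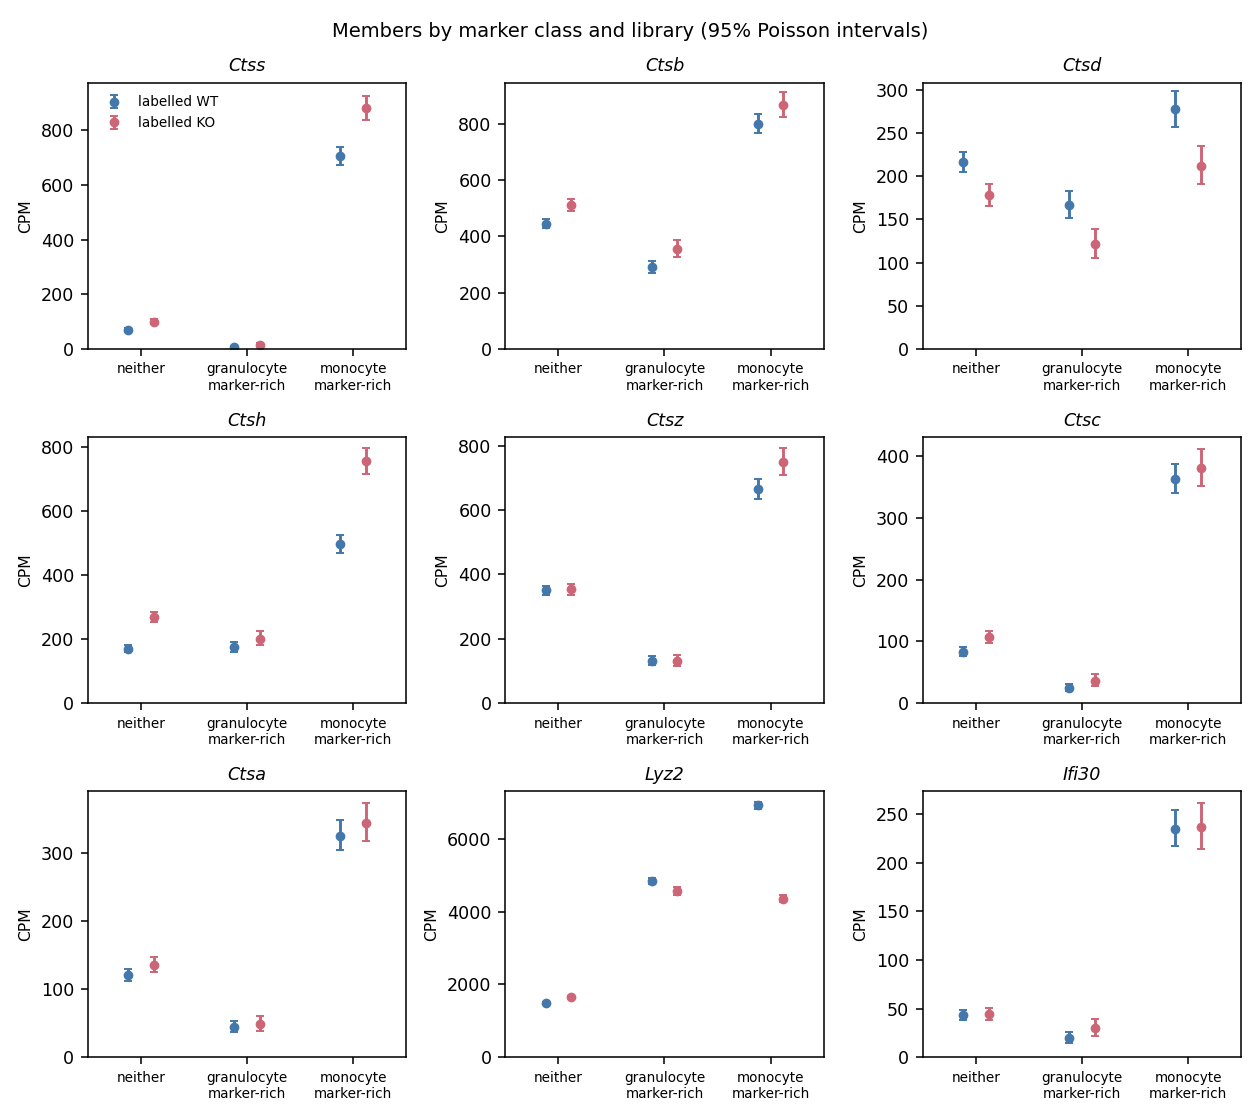
CPM of each of the 9 genes (y axis, from 0) in kept cells rich in neither marker list, in granulocyte-marker-rich and in monocyte-marker-rich cells (x axis), for the WT-labelled library (blue) and the KO-labelled library (red). Points are summed UMIs and bars are 95% Poisson intervals. Monocyte-marker-rich cells are highest for every gene except *Lyz2* in the KO-labelled library, where granulocyte-marker-rich cells reach 4561 CPM.

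**Figure D2:**
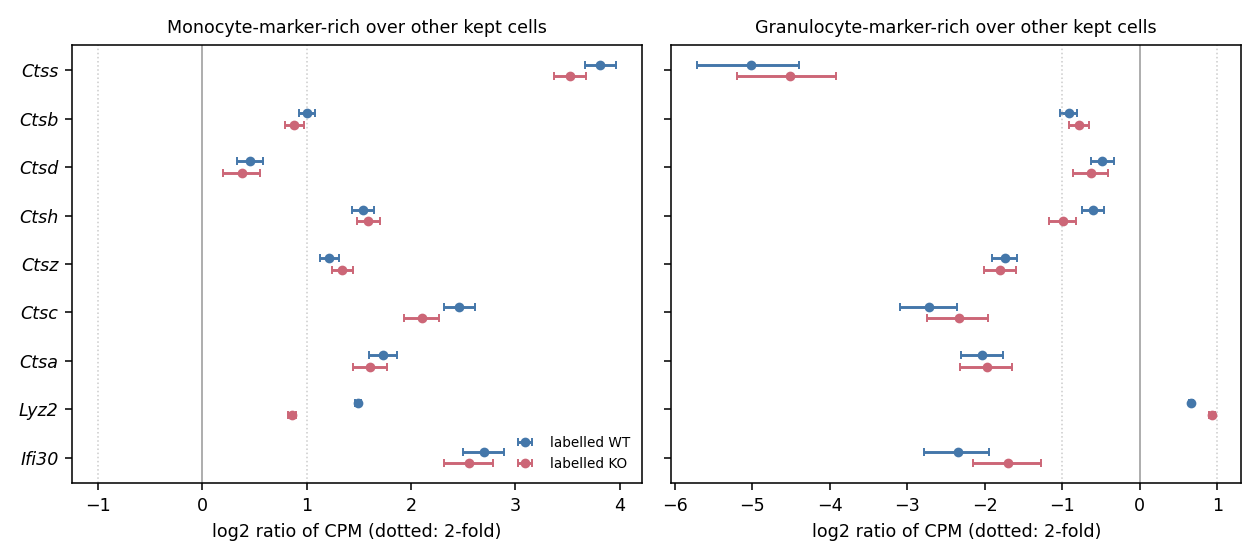
Log2 ratio of CPM in marker-rich cells over the other kept cells (x axis) for each gene (y axis), for monocyte markers on the left and granulocyte markers on the right, with 95% intervals. With the cells kept here *Ctss* spans 14.1-fold higher to 32.3-fold lower in the WT-labelled library, and *Lyz2* alone lies to the right of 0 in both panels.

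Detection in single cells followed the levels for *Ctss*, but not for *Lyz2* in the WT-labelled library. With every cell thinned to 1000 UMIs, *Ctss* had a UMI in 35.8% of monocyte-marker-rich cells of the WT-labelled library and in 40.5% of those of the KO-labelled library. In granulocyte-marker-rich cells the shares were 0.523% and 0.837%. *Lyz2* had a UMI in 80.5% and 80.1% of granulocyte-marker-rich cells, and in 62.9% and 59.4% of monocyte-marker-rich cells. A larger share of granulocyte-marker-rich than of monocyte-marker-rich cells thus held *Lyz2*, while fewer than 1 in 100 of them held *Ctss*. At this depth the monocyte limit falls to 1 UMI, so that class is wider than before thinning. Monocyte-marker-rich cells held a mean of 3.08 of the 9 genes in the WT-labelled library (SD over cells 1.79) and 3.22 in the KO-labelled library (SD 1.72). Granulocyte-marker-rich cells held 1.55 (SD 0.90) and 1.57 (SD 0.95).

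Free RNA in the droplets can give such UMIs in cells that do not make a gene. Cells with 2 or more erythroid markers, which should lack *Ctss* and *Lyz2*, numbered only 8 in the WT-labelled library and 26 in the KO-labelled library, with median depths of 3210.5 and 3691.5 UMIs. *Ctss* had a UMI in 3 of the 8 and 1 of the 26, *Lyz2* in 6 and 11, and *Ifi30* in 3 and 5. Without thinning, *Ctss* had a UMI in 23.2% and 22.3% of all kept cells, *Lyz2* in 81.5% and 75.9%, and *Ifi30* in 15.6% and 11.7%. A low share of cells with *Lyz2* or *Ifi30* can therefore not be read as expression, and the number of erythroid cells is too small to set a limit. Cells with 2 or more B cell markers numbered 1 and 2 in the WT-labelled and KO-labelled library, and those with 2 or more T or NK cell markers 2 and 3. The 6 erythroid markers summed to 208 CPM in the WT-labelled library and 538 CPM in the KO-labelled library, the 4 megakaryocyte markers to 20.8 and 135 CPM, and the 4 basophil and mast cell markers to 88.4 and 180 CPM. The part of these cells in the ratios between the libraries was not tested. For *Ctss* the level in granulocyte-marker-rich cells, 7.86 CPM in the WT-labelled and 13.7 CPM in the KO-labelled library, lay well under that of any other class. With a *Ctss* UMI in 3 of the 8 erythroid-marker cells of the WT-labelled library, it sets no limit that holds for other cells.

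In monocyte-marker-rich cells *Lyz2* stood at 6915 CPM (6814 to 7016) in the WT-labelled library and at 4357 CPM in the KO-labelled library, a log2 ratio of -0.67 (-0.71 to -0.63). These and the values that follow leave out the few cells rich in both lists. It was 1 of the 9 genes that was 1.5-fold or more lower there, against 6.03% of all 2737 genes. *Ctsh* was the 1 gene 1.5-fold or more higher, against 6.36% of all genes, with 496 CPM (469 to 523) in the WT-labelled library, 756 CPM (715 to 798) in the KO-labelled library and a log2 ratio of 0.61 (0.50 to 0.72). *Ctss* and *Ctsz* were higher by 0.32 and 0.17 and *Ctsd* lower by -0.39 on the log2 scale. *Ctsc*, *Ctsa* and *Ifi30* had ratios of 0.07, 0.08 and 0.01, whose intervals included 0. With libraries matched on depth, *Ctss* in this class turned to -0.24 and *Ifi30* came to -0.36, while *Lyz2* stayed lower and *Ctsh* higher in the KO-labelled library.

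In the other classes the *Lyz2* difference was small or of the other sign. The log2 ratio was -0.08 (-0.13 to -0.04) in granulocyte-marker-rich cells and 0.17 (0.12 to 0.21) in cells rich in neither list. *Ctsd* was lower in the KO-labelled library in all 3 classes, by -0.28 to -0.46 on the log2 scale, and *Ctsh* was higher in all 3, by 0.21 to 0.66. *Ctss* was higher in all 3 as well, with 68.5 and 99.0 CPM in cells rich in neither list and 16 and 21 UMIs in all in the granulocyte-marker-rich class. Of the markers that set the class, *Irf8*, *F13a1* and *Fn1* were lower in the KO-labelled library and *Ms4a6c* higher (*Irf8* 171 against 104 CPM, *F13a1* 137 against 90.4, *Fn1* 46.3 against 18.1, *Ms4a6c* 202 against 289). The class is therefore drawn from partly different markers in the libraries, and the part of this in the *Lyz2* difference was not tested.

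*Lyz2* was lower in the KO-labelled library at each step of monocyte marker content. In cells thinned to 1000 UMIs and free of monocyte marker UMIs, *Lyz2* held 3.50 UMIs per 1000 (3.42 to 3.57) in the WT-labelled library and 3.10 (3.02 to 3.17) in the KO-labelled library. This step pools granulocyte-marker-rich cells, 27.6% and 22.3% of the thinned cells, with cells rich in neither list. In kept cells rich in neither list *Lyz2* was higher in the KO-labelled library (1478 against 1657 CPM). The part of the class share in the marker-free difference was not tested. With 3 monocyte marker UMIs it held 8.54 (8.15 to 8.95) against 3.98 (3.67 to 4.29), and with 6 or more it held 18.5 (17.8 to 19.3) against 8.66 (8.14 to 9.21), over 128 and 119 cells. *Ctss* rose with the same markers, and its intervals in the libraries overlapped at the top: 0.04 UMIs per 1000 in marker-free cells of the WT-labelled library and 0.05 in the KO-labelled library, and 1.58 (1.37 to 1.81) against 1.504 (1.29 to 1.74) with 6 or more. *Ctsh* rose from 0.19 to 0.63 (0.50 to 0.79) in the WT-labelled library and from 0.24 to 1.12 (0.94 to 1.32) in the KO-labelled library.

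**Figure D3:**
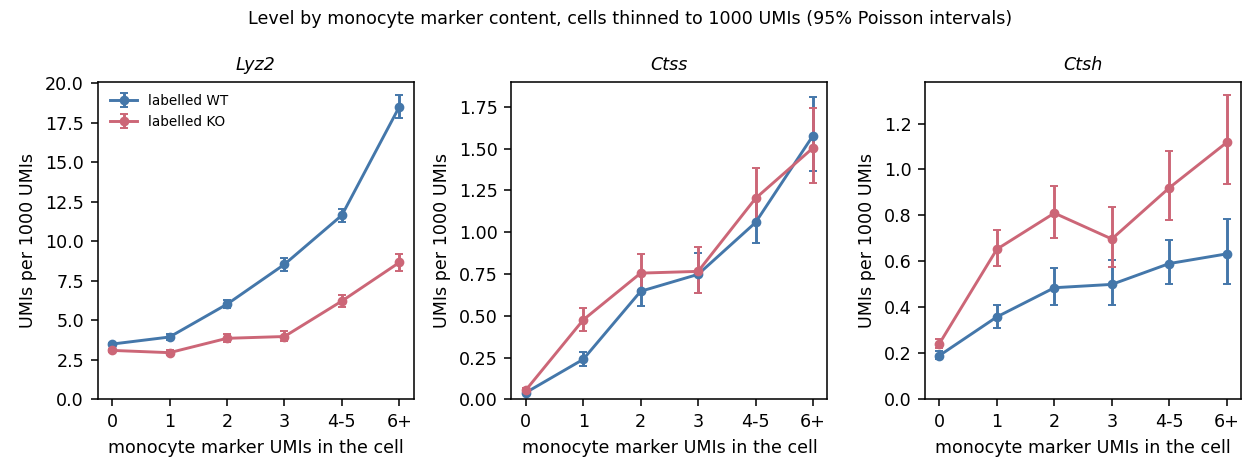
UMIs of *Lyz2*, *Ctss* and *Ctsh* per 1000 UMIs (y axis, from 0) by the number of monocyte marker UMIs in the cell (x axis), in cells thinned to 1000 UMIs, for the WT-labelled library (blue) and the KO-labelled library (red), with 95% Poisson intervals. The *Lyz2* lines part as markers rise (18.5 against 8.66 at 6 or more), the *Ctss* lines end together, and the *Ctsh* lines part the other way.

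From 1000 UMIs up, levels of *Lyz2*, *Ctss* and *Ctsh* fell with the depth of the cell in both libraries. This bears on their ratios between the libraries because the KO-labelled library is shallower. *Ctsz* fell and then rose. In the WT-labelled library it stood at 370 CPM with 1000 to 1999 UMIs, at 325 CPM with 2000 to 2999 and at 416 CPM with 5000 or more. In the KO-labelled library these steps gave 402, 309 and 511 CPM. *Lyz2* in the WT-labelled library stood at 9578 CPM (9437 to 9721) in cells with 1000 to 1999 UMIs, at 4779 CPM with 2000 to 2999, at 1763 CPM with 3000 to 4999 and at 743 CPM (712 to 775) with 5000 or more. In the KO-labelled library the same steps gave 4729 CPM (4646 to 4813), 2459, 1613 and 779 CPM (726 to 835). *Lyz2* was thus lower in the KO-labelled library among cells under 5000 UMIs, most so under 3000, and its intervals overlapped among the deepest. *Ctss* crossed over: among cells with 1000 to 1999 UMIs it stood at 550 CPM (516 to 585) in the WT-labelled library and 406 CPM (382 to 431) in the KO-labelled library, and among those with 3000 to 4999 at 94.6 CPM (85.7 to 104) and 133 CPM (117 to 150).

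*Ctsh* and *Ctsd* did not cross over between 1000 and 4999 UMIs. *Ctsh* stood at 449 CPM (419 to 481) in the WT-labelled library and 530 CPM (503 to 559) in the KO-labelled library with 1000 to 1999 UMIs, and at 193 against 229 CPM with 3000 to 4999. *Ctsd* stood at 271 CPM (247 to 295) against 188 CPM (172 to 205) and at 213 against 163 CPM in the same steps. Marker content moved with depth as well: monocyte-marker-rich cells made up 34.0% of cells with 1000 to 1999 UMIs in the WT-labelled library and 19.1% of those with 5000 or more, and 27.2% and 21.4% in the KO-labelled library. Granulocyte-marker-rich cells went from 37.6% to 7.25% and from 25.9% to 6.92%. What part of the depth pattern is marker content was not tested.

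**Figure D4:**
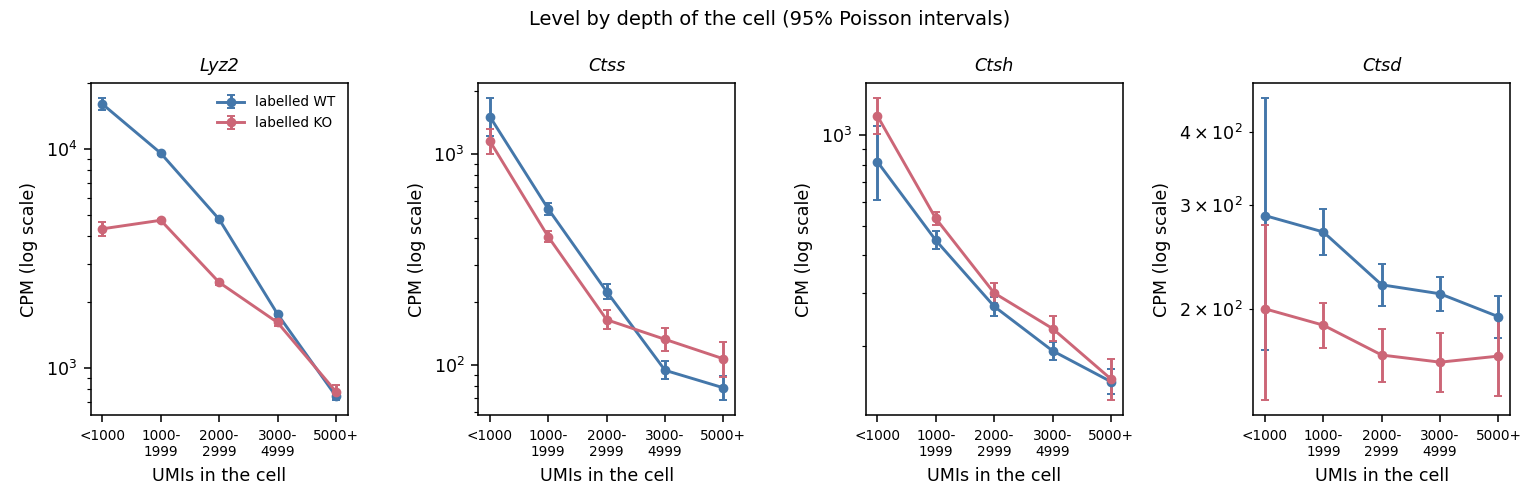
CPM of *Lyz2*, *Ctss*, *Ctsh* and *Ctsd* (y axis, log scale) by the total UMIs of the cell (x axis) for the WT-labelled library (blue) and the KO-labelled library (red), with 95% Poisson intervals. *Lyz2* separates the libraries in shallow cells (9578 against 4729 CPM at 1000 to 1999 UMIs) and not at 5000 or more, where it stands at 743 and 779 CPM.

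Over all kept cells the libraries differed by less than 1.5-fold for each of the 9 genes. The share of the 2737 genes that were 1.5-fold or more lower in the KO-labelled library was 3.43%, and 3.54% were 1.5-fold or more higher. Only *Lyz2* and *Ctsd* were below 0 on the log2 scale, 2 of 9 where 39.8% of all genes were. *Lyz2* stood at 3471 CPM in the WT-labelled library and 2837 CPM in the KO-labelled library (log2 ratio -0.29, -0.31 to -0.27), and *Ctsd* at 219 and 174 CPM (-0.33, -0.43 to -0.24). *Ctsh* was the highest of the other 7, at 244 and 361 CPM (0.56, 0.49 to 0.64). *Ctss* (198 and 252 CPM), *Ctsc* (133 and 152 CPM), *Ctsb* (489 and 557 CPM), *Ctsa* (149 and 164 CPM) and *Ctsz* (371 and 395 CPM) had log2 ratios of 0.35, 0.20, 0.19, 0.13 and 0.09. *Ifi30* (80.8 and 83.1 CPM) had a ratio of 0.04, whose interval of -0.11 to 0.19 included 0. The median of the 9 was 0.13, beside 0.07 for all 2737 genes.

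When cells were drawn so that both libraries had the same numbers at each depth, 2778 cells each, the *Lyz2* ratio became -0.90, *Ctss* turned to -0.36, *Ctsc* to -0.04, *Ctsa* to -0.09 and *Ctsb* to -0.03. *Ifi30*, at 0.04 over all kept cells, came to -0.34 (-0.52 to -0.17) with this drawing. *Ctsh* stayed above 0 at 0.17, and *Ctsd* stayed between -0.41 and -0.33 in every alternative run. Of the 9 genes, *Lyz2* and *Ctsd* were lower and *Ctsh* and *Ctsz* higher in the KO-labelled library in every alternative run over all cells, *Ctsz* by as little as 0.0061 when thinned to 1500 UMIs. Within monocyte-marker-rich cells the *Lyz2* ratio ranged from -1.28, with matched depth, to -0.43, with the marker limit at percentile 50 of cells. In cells with 2 or more of 9 macrophage markers (267 in the WT-labelled library and 181 in the KO-labelled library, a choice made after the values were seen), *Lyz2* stood at 4726 and 5788 CPM. There *Lyz2* was higher, not lower, in the KO-labelled library, whose macrophage-marker cells were shallower, with a median depth of 1834 UMIs against 2940. The part of depth in this was not tested. *Apoe*, *Adgre1* and *Vcam1* carry that list, while *Mertk* was at 0 and *C1qa*, *Mrc1* and *Axl* were under 1 CPM in both libraries.

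The study asked how *Kat2a* loss changes variability between cells, measured as the coefficient of variation (CV, the SD of a gene over cells divided by its mean) of counts scaled to 10000 per cell. At the depth as sequenced, 6 of the 9 genes had a higher CV in the KO-labelled library, where 87.7% of all genes did, and after thinning to 1000 UMIs 5 of 9 did, where 55.7% did. *Ctsd* and *Ctsz* were the highest, with log2 CV ratios of 0.44 and 0.43 at own depth and 0.27 and 0.29 after thinning. Within marker classes at 1000 UMIs the *Ctsz* ratio was 0.70 in cells rich in neither list, -0.04 in granulocyte-marker-rich and -0.03 in monocyte-marker-rich cells, and that of *Ctsd* was 0.19, 0.18 and 0.36. The median over the 9 genes was -0.04 in cells rich in neither list, -0.06 in granulocyte-marker-rich and -0.03 in monocyte-marker-rich cells. The CV of *Ctsd* was 1.61 in the WT-labelled library and 2.18 in the KO-labelled library at own depth, and that of *Ctsz* 1.48 and 1.99. *Ctsh* and *Ctsb* had a lower CV in the KO-labelled library, with ratios of -0.11 for each at own depth and -0.21 and -0.10 after thinning. *Lyz2* had ratios of 0.09 and 0.10, *Ctss* -0.04 and -0.05, *Ctsc* 0.04 and -0.02, *Ifi30* 0.22 and 0.13, and *Ctsa* 0.19 and 0.03. Of the cysteine cathepsins only *Ctsz* therefore had a ratio above 0.1 in either view over all kept cells.

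Burst frequency, estimated here from the mean and the variance beyond counting, was lower in the KO-labelled library for 5 of the 9 genes at own depth, where it was lower for 79.3% of genes. After thinning it was lower for 5 of 9, where it was lower for 74.5%. *Ctsz* had the lowest ratio after thinning, -1.73 on the log2 scale (estimates of 1.12 and 0.34), followed by *Ctsd* at -1.24 (1.31 and 0.56). *Ctsb* lay at the other end, at 0.34 (0.82 and 1.04). These estimates have no interval here and rest on 1 library each. Without thinning, the highest *Ctsz* count in a cell was 17 UMIs in the WT-labelled library and 37 in the KO-labelled library. The 5% of cells with most *Ctsz* held 27.0% and 33.2% of its UMIs. The part of such cells in the estimates was not tested.

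**Figure D5:**
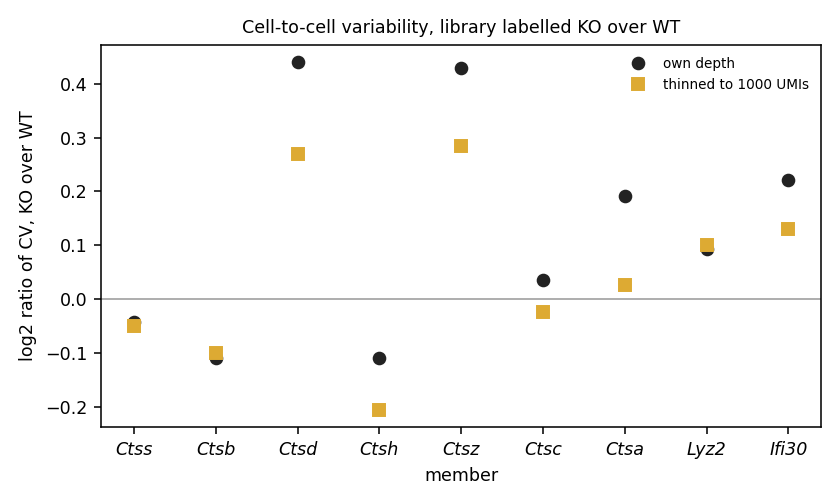
Log2 ratio of the CV in the KO-labelled library over the WT-labelled library (y axis) for each gene (x axis), at own depth (circles) and thinned to 1000 UMIs (squares). *Ctsd* and *Ctsz* lie highest in both views (0.44 and 0.43 at own depth), and *Ctsb* and *Ctsh* lie below 0 in both.

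Other lysosomal genes were read from lists drawn up with earlier results of these data known. Of 27 further lysosomal hydrolases, 8 passed the 10% limit and 0 of them differed 1.5-fold between the libraries. Of all 2737 genes 3.43% were so lower and 3.54% so higher in the KO-labelled library, shares that also apply to the lists below. The hydrolases with the largest ratios included *Man2b1* (190 and 138 CPM) and *Hexa* (137 and 177 CPM). In monocyte-marker-rich cells 1 of the 8, *Asah1*, acid ceramidase, was 2-fold or more higher, by 2.04-fold and 2.24-fold, where 4.13% of all genes were so in each library. *Hexa* lay just under that limit, at 1.86-fold and 1.95-fold, and the median log2 ratio of the 8 was 0.50 and 0.66. Of 5 cofactors and lipid carriers, 4 were 2-fold or more higher in both libraries, where 4.13% of all genes were so in each: *Psap* (4.68-fold and 3.90-fold), *Gm2a* (3.53-fold and 4.64-fold), *Npc2* (2.38-fold and 2.35-fold) and *Creg1* (2.39-fold and 2.58-fold). Between the libraries *Creg1* stood at 171 and 223 CPM, *Grn* at 229 and 183 CPM and *Npc2* at 511 and 566 CPM, and 0 of the 5 differed 1.5-fold.

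The V-ATPase, the pump that acidifies the lysosome, showed small contrasts with the monocyte markers. Of its 16 genes 13 passed the limit, and 0 were 2-fold or more higher or lower in monocyte-marker-rich cells of either library. Of all 2737 genes only 4.13% were 2-fold or more higher there in each library, so 0 of 13 cannot be read as a trait of these genes. Their median log2 ratio there was 0.05 in the WT-labelled library and 0.12 in the KO-labelled library, beside 1.54 and 1.59 for the 9 genes. Single V-ATPase genes ranged from 0.74 to 1.69 times the other cells in the WT-labelled library and from 0.75 to 1.62 times in the KO-labelled library. Between the libraries the largest ratios were those of *Atp6v1a* (72.9 and 50.5 CPM), *Atp6v1b2* (109 and 79.2 CPM) and *Atp6v0e* (698 and 822 CPM). Of 6 lysosomal membrane genes that passed, *Cd68* was 3.85-fold and 3.91-fold higher in monocyte-marker-rich cells. The tetraspanin *Cd63* went the other way, at 481 against 1685 CPM in the WT-labelled library and 0.54 times the level of other cells in the KO-labelled library. Between the libraries *Laptm5* (300 and 200 CPM), *Cd63* (1414 and 1787 CPM) and *Cd68* (157 and 186 CPM) had the largest ratios of that list, and 0 of 6 differed 1.5-fold. Of the sorting list only *M6pr*, a mannose 6-phosphate receptor, passed, at 143 and 152 CPM.

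Inhibitors and partners of the cathepsins split by cell class. *Cst3*, the secreted inhibitor cystatin C, was 2.07-fold and 2.22-fold higher in monocyte-marker-rich cells. The stefins *Stfa1*, *Stfa2l1*, *BC100530* and *Gm5483* were 3.302-fold to 6.97-fold higher in granulocyte-marker-rich cells, where *Ctss* was lowest. Between the libraries 4 of the 6 inhibitors that passed were 1.5-fold or more lower in the KO-labelled library, where 3.43% of all genes were. *Gm5483* stood at 726 and 257 CPM, *Stfa2l1* at 176 and 66.3 CPM and *BC100530* at 2673 and 1157 CPM. These stefins are near-identical copies, so the split of reads among them is uncertain. The share of granulocyte-marker-rich cells was itself lower in the KO-labelled library (21.8% against 27.9%). Within those cells *BC100530* stood at 7696 CPM in the WT-labelled library and 3449 CPM in the KO-labelled library, and *Gm5483* at 1946 and 696 CPM. *Stfa2l1* stood there at 515 and 209 CPM and *Stfa1* at 2393 and 1202 CPM. The part of the class share in these differences was not tested. Of the MHC class II list, the peptide-loading genes *H2-DMa* and *H2-DMb1* passed the 10% limit. The 4 other genes of that list did not pass and were higher in the KO-labelled library: *Cd74*, the invariant chain that cathepsin S trims, stood at 52.6 and 498 CPM, *H2-Aa* at 12.3 and 113 CPM, *H2-Ab1* at 20.7 and 110 CPM and *H2-Eb1* at 6.00 and 40.9 CPM. The list summed to 323 CPM in the WT-labelled library and 1063 CPM in the KO-labelled library. *H2-DMa* was 3.67-fold and 3.57-fold higher in monocyte-marker-rich cells, and stood at 116 and 184 CPM in the libraries labelled WT and KO. *H2-DMb1* was 2.30-fold and 2.96-fold higher there, at 116 and 117 CPM in all cells. Of the other cathepsins only *Ctsg*, a granule serine protease and substrate of cathepsin C, passed, at 1996 and 1486 CPM. *Ctsg* was not raised in monocyte-marker-rich cells (0.74 and 0.99 times the other cells) and stood at 0.06 and 0.11 times the level of other cells in granulocyte-marker-rich ones.

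The genes most like each of the 9 were sought by the Pearson correlation of log2(CPM + 10) over 8 strata, the 2 libraries by the 4 marker classes, with the other members left out. The strata share their libraries, and the 2 strata of cells rich in both lists hold 3 and 1 cells, so the values are a description. *Ctss* was most like *Cst3* (r = 0.97), *Ftl1* and *Unc93b1*. *Ctsc* was most like *Tifa* (0.99), *Cd68* and *H2-DMa*, and *Ifi30* most like *Gm2a* (0.98), *Tmem55b* and *Tpm4*. *Ctsd* was most like *Grn* (r = 0.995), *Ebp* and *Smek2*, and *Ctsz* most like *Ftl1* (0.97), *H2afj* and *Psap*. *Ctsb* was most like *Rbm7* (0.998), *Fam195b* and *Arpc5l*, *Ctsh* most like *Arpc5l* (0.99), *Stx7* and *Commd4*, and *Ctsa* most like *Apobec3* (0.999), *Il3ra* and *Tspan31*. *Lyz2* was most like *Klf2* (0.95), *Pirb* (0.90) and *Mgst1* (0.89), and *Klf2* was the only 1 of 2728 genes above 0.9. For *Ctsa*, 857 genes were above 0.9, but *Ctsa* held 0 UMIs in both small strata. These counts were not taken without the small strata, so they are not a trait of the genes. Without the 2 small strata, *Tifa* was again first for *Ctsc*, *Klf2* came sixth for *Lyz2* (r = 0.91), and *Cst3* came only 41st for *Ctss* (0.99), so most of these ranks rest on the small strata.

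Across single cells thinned to 1000 UMIs, the 9 genes were weakly correlated. The highest Pearson r of ln(1 + scaled count) was 0.33 between *Ctss* and *Ctsc* in the WT-labelled library (3800 cells), followed by 0.31 between *Ctss* and *Lyz2*. In the KO-labelled library (3351 cells) the highest was 0.28, between *Ctss* and *Ctsh*. The cells of a library share its capture and depth, and counts this sparse keep r low.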

How the data were processed

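The members and gene lists were chosen with earlier results of these data known. The deposited values are whole-number UMI counts per gene and cell. The authors made them with Cell Ranger (1.3.1 per the submitters' processing notes, another version per the study's methods) on mm10 from 10x Genomics 3′ libraries of live, reporter-positive sorted cells, aimed at 6000 cells each, and deposited 1 matrix for both libraries (8309 cells, 20477952 UMIs). The annotation was not given in the sources used here. Libraries were told apart by the number ending each barcode. The labels do not explain it, so it was read from analysis code published with the study (1 is Cre-positive). Cells with under 500 genes (203 labelled WT, 695 labelled KO) were left out and doublets were kept. The remaining 11669427 and 7920256 UMIs were summed per library or class and scaled to CPM. Intervals are exact Poisson, Clopper-Pearson or conditional binomial (scipy 1.17.1, Python 3.11.15). Thinning to 1000 UMIs left out 66 and 194 cells. Burst frequency was estimated as the squared mean over the variance left once counting variance was subtracted. Functions were tested on simulated data. Alternatives changed the cells, depth, scaling, class shares and marker limits. Genes named were the 9 members, the 3 genes with the largest ratio in each lysosomal list, the 3 most like each member, and those 2-fold different in marker-rich cells, which were chosen after their values were seen. A gene that this rule names is not reported here.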

Additional observations from a re-analysis of the deposited data

Results flagged for a closer look

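Cells with under 500 genes lie outside the comparisons above, and there 7 of the 9 genes and the sum of all 9 were higher in the KO-labelled library (695 cells, 665160 UMIs) than in the WT-labelled library (203 cells, 223109 UMIs), with intervals that did not overlap. The share of all genes that were higher by this rule in these cells was not counted. The 7 of 9 can therefore not be read as a trait of these genes. *Lyz2* stood at 9990 CPM against 8879 CPM and made up most of the sum, 12138 against 9914 CPM. *Ctss* stood at 397 CPM (350 to 448) against 89.6 CPM (54.8 to 138) and *Ctsh* at 511 against 224 CPM. *Ctsb* stood at 496 against 247 CPM and *Ctsz* at 260 against 134 CPM. *Ctsc* stood at 111 against 31.4 CPM and *Ifi30* at 78.2 against 22.4 CPM, the latter pair resting on 7 and 5 UMIs in the WT-labelled library. In both libraries *Lyz2* was higher in these cells than in kept cells (3471 and 2837 CPM). With every deposited cell included, the *Lyz2* ratio between the libraries shrank from -0.29 to -0.08 on the log2 scale. The cause was not tested.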

How the results depend on the processing

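No paired analysis was possible because each genotype gave a single library. The log2 ratio of the 9 genes summed, -0.11 in the KO-labelled library over the WT-labelled library, was 0.023 with every deposited cell, -0.028 in cells with 1000 or more genes, -0.31 thinned to 1000 UMIs, -0.31 thinned to 1500 UMIs, -0.60 with libraries matched on total UMIs, -0.18 with the median of all genes set to 0 and -0.076 with equal class shares. *Lyz2* holds most of this sum, 40501 of 62482 UMIs in the WT-labelled library and 22466 of 39395 in the KO-labelled library. Without *Lyz2* the main ratio of the sum had the other sign, at 0.18 (0.15 to 0.21). The sum without *Lyz2* was not recomputed under the alternatives. Thinning to 1500 UMIs turned *Ctss* to -0.062 and *Ctsc* to -0.0022, and thinning to 1000 UMIs turned *Ctsa* to -0.041. Matching turned *Ctss* to -0.36, *Ctsb* to -0.026, *Ctsc* to -0.038 and *Ctsa* to -0.090. *Ifi30*, whose interval of the main value included 0, was -0.34 matched, -0.027 thinned to 1000 UMIs and -0.024 thinned to 1500 UMIs. Within monocyte-marker-rich cells, a comparison added after the data were seen, matching turned *Ctss* to -0.24, *Ctsb* to -0.22, *Ctsc* to -0.17, *Ctsa* to -0.22 and *Ifi30* to -0.36, and a marker limit at percentile 90 turned *Ctsb* to -0.035. The median contrast of the 9 genes in marker-rich cells held its direction throughout, and moved by over 1.5 times only for granulocyte markers in the KO-labelled library (-0.66 in cells with 1000 or more genes, against -1.70). The median CV ratio, 0.094, was 0.043 in cells with 1000 or more genes and 0.026 thinned to 1000 UMIs. The CV ratio of *Ctss* turned to 0.067 in cells with 1000 or more genes, 0.18 thinned to 1500 UMIs and 0.18 matched, and that of *Ctsb* to 0.043 and 0.026 in the first of these settings and at 1500 UMIs. That of *Ctsc* turned to -0.16 in cells with 1000 or more genes, -0.024 at 1000 UMIs and -0.014 at 1500 UMIs, and that of *Lyz2* to -0.27 in cells with 1000 or more genes. The causes were not tested. Of 542 recomputed values of single genes, 330 stayed within their limits, 193 moved and 19 changed sign, where a ratio of levels was counted as changing sign only if its main interval lay clear of 0.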
